A study of Mus musculus with 8 samples.

Results

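Gene expression was compared between 2 untreated primary cultures of mouse cerebellar neurons, the one kept for 48 h and the one kept for 6 h. Of 45037 probe-sets, groups of short oligonucleotides that each read 1 transcript, 16796 had a signal of 50 or more on at least 1 of the 2 arrays and were kept. They covered 9859 of the 18193 genes that have a probe-set with a single gene symbol. The study asked how such cultures respond to T3, the active thyroid hormone, given at 0.1 µM for 6, 16, 24 or 48 h. Each treated culture had an untreated partner that went through the same medium changes, which made 8 cultures and 8 whole-genome arrays, 1 for each. All cells were wild-type and came from pooled cerebella that were mechanically dissociated and then kept for 48 h without serum before the clock of the experiment was started. The 48 h culture had therefore been in culture for longer in all than the 6 h culture, and neither was given the T3 treatment. The pups were P4 to P7 according to the labels and P1 to P4 according to the methods.

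The methods state that the treated and the untreated culture of 1 time point came from the same batch of cells, and they do not say whether different time points shared a batch. The hours of culture and the batch of cells cannot be told apart here. With 1 array for each condition no difference has an error or a test, and every fold change below describes 2 cultures. The deposited signals are on a linear scale with a trimmed mean of 100 on every array, and the median signal lay between 14.8 and 17.7 over the 8 arrays. Signals below 20 were raised to 20 before a fold change was taken. A gene is counted as higher or lower when it was at least 2-fold so. A gene with several kept probe-sets is given by the brightest. Just inside the limit of 50 lay Fam189a1 (50 at 6 h and 10.8 at 48 h) and Gabrb1 (50 and 17.4), and just outside it Hic2 (49.9 and 35.7) and Drc3 (31.4 and 49.9).

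The granule neuron is the most numerous neuron of the cerebellum. Its precursors divide under Sonic hedgehog in the outer layer of the young cerebellum, leave the cell cycle, extend axons and migrate inwards. A culture of dissociated cerebellum also holds other neurons, glia and cells of the meninges and blood vessels, which can go on dividing where neurons cannot. In such a mixture, fewer cells of a type and less RNA per cell cannot be told apart.

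Genes of neurons were lower at 48 h, and genes of the extracellular matrix, the meninges, the choroid plexus and the interferon response were higher. Of the kept genes, 1813 (18.4%) were at least 2-fold higher at 48 h and 1443 (14.6%) at least 2-fold lower. Over the kept probe-sets the counts were 2846 (16.9%) and 2717 (16.2%). At least 4-fold higher were 618 genes and lower 403. At least 16-fold higher were 24 genes and lower 20. On arrays scaled to the same mean, 4610 genes (46.8%) lay within 1.5-fold and the median log2 fold change was -0.01. A gene with 1 signal below 20 had to pass the 2-fold limit because its other signal was at least 50, and this held for 274 of the higher and 209 of the lower genes. Likewise, a kept gene with 1 signal below 50 had its direction set by the filter.

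**Figure D1:**
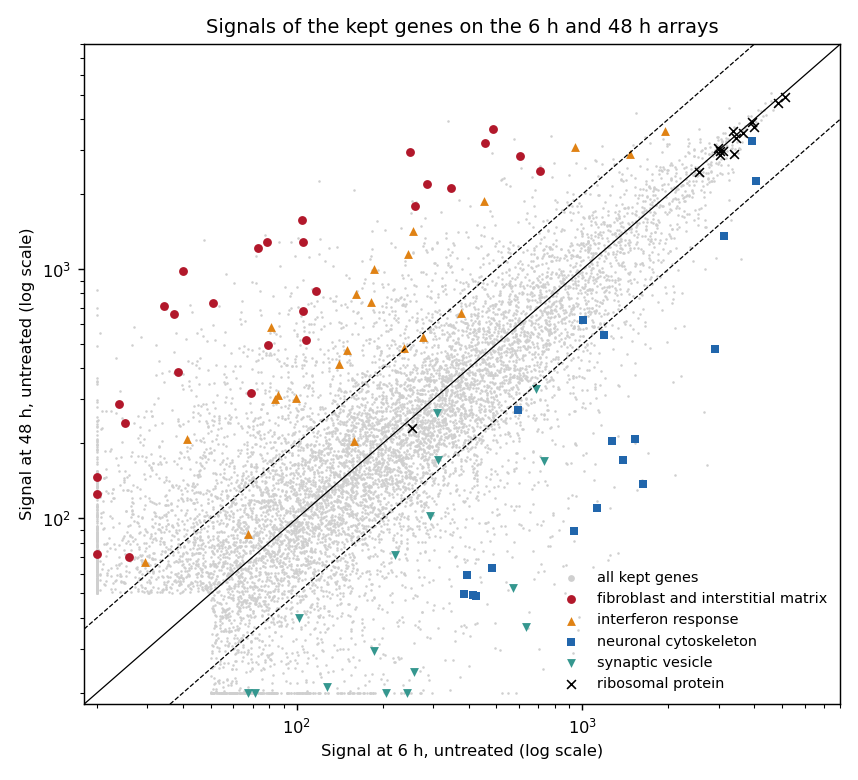
Signal of each of the 9859 kept genes on the untreated 6 h array (x axis) and the untreated 48 h array (y axis), both on log scales with signals below 20 drawn at 20. The solid line marks equal signals and the dashed lines 2-fold; the 28 fibroblast and matrix genes lie above the upper dashed line, most neuronal cytoskeleton and synaptic vesicle genes below the lower, and ribosomal protein genes along the solid line.

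The labelled cell type was set beside the signals of markers. The antibody Tuj1, with which the study stained its neurons, recognizes the product of Tubb3, whose signal was 415.3 at 6 h and 49.3 at 48 h. By that staining the study found most cells of its cultures positive, which is a measure of protein by cell and not of RNA. Rbfox3, which encodes the neuronal antigen NeuN, had 1613.7 at 6 h and 142.0 at 48 h, and the dendritic microtubule protein Map2 had 1391.3 and 171.4. These neuronal markers, of which Rbfox3 is counted here among the granule neuron genes, were 8.42-fold, 11.4-fold and 8.12-fold lower on the 48 h array. That array is also labelled as neurons. The meningeal fibroblast and interstitial matrix genes moved the opposite way, with a summed signal over 28 genes of 4520 at 6 h and 33828.5 at 48 h. The 16 granule neuron genes on the array had 10121.7 and 878.4. Both lists were chosen with earlier results of these data known. The part of meningeal and other cells in the neuronal values was not tested.

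Most of the largest decreases were in genes known from neurons. St18, a zinc finger transcription factor, had a signal of 926.5 at 6 h and 28.8 at 48 h, a log2 fold change of -5.01. Plppr1, a membrane protein that drives filopodia in neurites, went from 583.7 to 19.5 (-4.87), and Chgb, the secretory granule protein chromogranin B, from 725.8 to 25 (-4.86). All 3 were thus at or near the floor of 20 at 48 h, so their ratios depend on low signals. Slc17a6, the vesicular glutamate transporter VGLUT2, had 521.0 and 7.8, which counts as a log2 fold change of -4.70 with the 48 h signal at the floor. Ank3, the ankyrin that organizes the axon initial segment, had 1329.5 and 72.8 (-4.19). For Rufy3, which takes part in axon formation, the brightest probe-set had 1230.0 and 68.4 (-4.17), whereas its 5 kept probe-sets ranged from -4.17 to -0.54. The other genes among the 12 with the largest decreases were Csrnp3 (-4.78), Tmem178 (-4.75), A930009L07Rik (-4.60), the kinase anchoring protein Sphkap (-4.55), the early granule neuron factor Nhlh1 (-4.14) and the phosphatase inhibitor Ppp1r14c (-4.12).

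The largest increases were led by Xist, the RNA that coats the inactive X chromosome of female cells, with 15.2 at 6 h and 827.1 at 48 h, a log2 fold change of 5.37. Its level depends on the sex of the pups and is described with the other sex-linked genes. Next came Gjb6, the gap junction protein connexin 30, with 13.5 and 700.5 (5.13), and Crispld1 with 9.4 and 652.2 (5.03). Most of the others encode secreted or matrix proteins of connective tissue. Ogn, the small proteoglycan osteoglycin, had 39.8 and 986.4 (4.63), and the fibroblast protease Fap 16.8 and 492.7 (4.62). The lipocalin Apod had 119.2 and 2265.8 (4.25), so that its increase does not depend on a low signal at 6 h alone. The remaining 6 of the 12 were the hyaluronan-binding proteins Itih5 (4.78) and Itih2 (4.44), the proteoglycan Epyc (4.77), the retinoic acid synthesizing enzyme Aldh1a2 (4.37), the collagen regulator Cthrc1 (4.31) and the elastic fibre protein Emilin1 (4.24).

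Neuron differentiation genes were lower almost throughout. Of 17 granule neuron genes 16 have a probe-set and 13 were kept, of which 12 were at least 2-fold lower and 0 higher, with a median log2 fold change of -3.33. Neurod1, the transcription factor of the differentiating granule neuron, had 2671.7 at 6 h and 266.3 at 48 h. Reln, the secreted guide of neuron migration, had 2724.4 and 163.2, a log2 fold change of -4.06. Cbln1, a synapse organizer that granule neurons release, had 714.1 and 65.7 (-3.44). The exception was Tiam1, an activator of Rac, with 63.7 and 58.5. The markers of the mature granule neuron were below the limit of 50 on both arrays. Gabra6, the receptor subunit that marks it, had 7.7 at 6 h and 4.8 at 48 h, Cbln3 9.0 and 7.2, and the glutamate transporter Slc17a7 8.2 and 6.4.

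Of 20 genes of the neuronal cytoskeleton and the growth cone, 18 were kept, 15 were lower and 0 higher (median -2.80). The microtubule regulators Stmn2 (1634.0 at 6 h and 137.8 at 48 h), Stmn4 (934.3 and 88.8) and Dcx, a protein of migrating neurons (1123.8 and 110.6), were 11.9-fold, 10.5-fold and 10.2-fold lower. The growth cone protein Gap43 had 1266.9 and 204.0 (-2.63). The 3 that did not pass 2-fold were the tubulin Tuba1a (3926.9 and 3279.0, -0.26), the growth cone protein Dpysl3 (1005.4 and 627.8, -0.68) and the stathmin Stmn1 (4046.5 and 2262.8, -0.84). A dimmer probe-set of Stmn1 was at -3.69.

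Synaptic genes followed. Of the 16 kept synaptic vesicle and release genes 14 were lower and 0 higher (median -1.97). Snap25, a component of the complex that fuses vesicles with the membrane, had 631.9 and 36.7, a log2 fold change of -4.11. The calcium sensor Syt1 had 570.5 and 52.8 (-3.43), and the vesicle protein Syp 256.3 and 24.2 (-3.40). Nsf, which every cell uses to recycle fusion complexes, stood at 308.5 and 263.8 (-0.23). Of the 8 kept genes of dense core vesicles, which store peptides, 6 were lower: Chgb, Scg3 (936.4 and 81.1), Scg2 (422.1 and 37.6), Scg5 (668.9 and 74.0), Chga (143.0 and 18.2) and Vgf (185.7 and 32.7). The processing enzyme Cpe, in contrast to the granins that share these vesicles with it, had 2867.1 and 2314.2 (-0.31).

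Receptors and channels were mostly dim. Of 18 receptor subunits for glutamate and GABA on the array only 5 were kept, and all 5 were lower. All 5 were below 50 at 48 h, from 5.9 (Grik2) to 24.3 (Gria4), so the filter set their direction. Grik2 and Gabrb1 (17.4) were below 20 and had to pass 2-fold. Gria2, the AMPA receptor subunit that limits calcium entry, had 234.6 and 21.4 (-3.45), and the NMDA receptor subunit Grin2c 342.6 and 20.5 (-4.06). Among the 13 subunits not kept were Gria1 (40.1 and 5.6), Grin2b (43.0 and 7.4) and Gabra2 (46.0 and 8.0). Of 12 kept voltage-gated channel genes 11 were lower (median -1.99), among them the A-type potassium channel Kcnd2 (231.7 and 12.6), the sodium channel Scn8a (199.5 and 23.7) and the N-type calcium channel Cacna1b (119.2 and 8.2). Kcnd2, Cacna1b, Cacna1e, Cacna2d3, Kcna1 and Kcna2 were below 20 at 48 h, so that they had to pass 2-fold.

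The axon guidance genes went both ways. Of 20 kept, 10 were lower and 6 higher. On the lower side were receptors and adhesion molecules of growing axons, the netrin receptors Dcc (869.9 and 50.1, -4.12) and Unc5c (875.6 and 64.8, -3.76), the ephrin receptor Epha3 (175.9 and 17.3) and the adhesion molecules Nrcam (892.0 and 110.5), L1cam (609.5 and 93.9) and Ncam1 (1330.0 and 215.0). The secreted cue Ntn1 (207.4 and 95.2, -1.12) and the semaphorin Sema6a (181.5 and 30.8, -2.56) were lower too. On the higher side were the secreted cues Slit2 (73.4 and 430.1, 2.55), Slit3 (14.6 and 76.5, 1.94) and Sema3a (29.2 and 108.7, 1.90), the semaphorin receptors Nrp2 (69.5 and 398.7, 2.52) and Nrp1 (142.4 and 582.5, 2.03), and Epha4 (18.1 and 57.5, 1.52).

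Genes of other neurons mostly had the same direction as those of granule neurons. Gad1, the enzyme that makes GABA, had 246.7 at 6 h and 22.4 at 48 h, and with the factor Lhx1 and the calcium-binding protein Calb2 it made up the 3 kept GABAergic genes, which were all lower. Gad1 and Lhx1 (389.9 and 36.8) were kept through the 6 h array alone, so the filter set their direction. The other 7 on the array were not kept, Gad2 (13.1 and 1.3) and Slc32a1 (49.1 and 9.6) among them. Of 6 kept Purkinje cell genes 4 were lower: Pcp2 (206.3 and 22.4, -3.20), Car8 (538.6 and 55.5, -3.28), Calb1 (266.8 and 38.8, -2.78) and Pcp4 (749.4 and 136.3, -2.46). Foxp2 was higher (93.8 and 298.2, 1.67) and Rora had 74.3 and 131.5 (0.82), transcription factors that are also made outside Purkinje cells. Of the markers of unipolar brush cells and the cerebellar nuclei, Uncx (512.7 and 29.7) and Eomes (202.8 and 28.4) were lower, while Irx3 (28.3 and 130.8) and Meis2 (10.6 and 103.2) were higher.

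**Figure D2:**
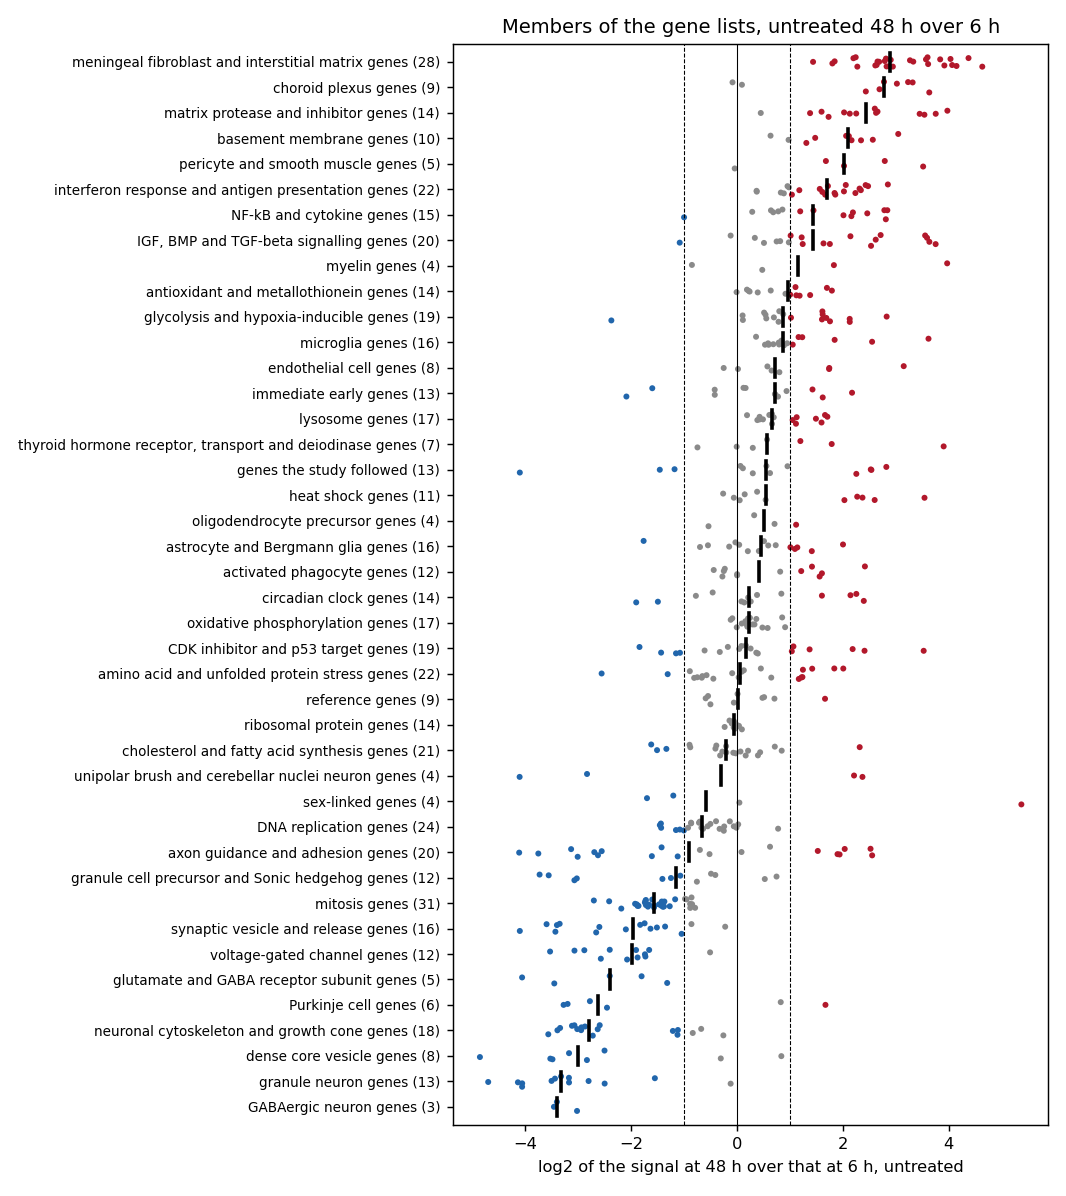
Log2 of the untreated 48 h signal over the 6 h signal (x axis) for every kept member of the 42 gene lists that have any; the number of kept members stands in brackets. Each point is 1 gene (red at least 2-fold higher, blue at least 2-fold lower, grey between), a short vertical bar marks the median of a list, and dashed lines mark 2-fold. Matrix, choroid plexus and interferon lists stand at the top, neuronal lists at the bottom.

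The precursor and cell cycle genes were lower by smaller medians than the granule neuron genes. Of 12 kept genes of the granule cell precursor and of Sonic hedgehog signalling, 7 were lower and 0 higher (median -1.16). The precursor factors Pax6 (853.2 and 64.2, -3.73), Atoh1 (232.5 and 27.6, -3.07) and Barhl1 (347.8 and 42.6, -3.03) and the hedgehog target Mycn (676.0 and 57.3, -3.56) differed most. Ptch1, the hedgehog receptor and itself a target, had 1051.8 and 395.3 (-1.41). The D cyclins, which carry cells into the cycle, did not pass 2-fold: Ccnd2 had 2269.1 and 1612.0 (-0.49) and Ccnd1 158.8 and 266.0 (0.74). For Ccnd2 the 6 kept probe-sets ranged from -1.32 to -0.49. Gli1, the other common readout of the pathway, had 7.8 and 13.9 and was not kept.

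Of 31 kept mitosis genes 24 were lower and 0 higher (median -1.56), and all 31 had a log2 fold change of -0.79 or less. Cenpf, a kinetochore protein, had 1011.5 and 154.9 (-2.71), the spindle protein Nusap1 885.6 and 165.7 (-2.42) and the spindle motor Kif11 198.3 and 43.5 (-2.19). Mki67, the proliferation marker Ki-67, had 2115.2 and 581.1 (-1.86). At 48 h all of these signals were above the floor of 20, though that of Kif11 was under 50. Genes of DNA replication stood closer to even, with 6 of 24 (25%) lower, beside 14.6% of all kept genes, and 0 higher (median -0.66). Mcm5, a subunit of the replicative helicase, had 1097.3 and 404.3 (-1.44), and the sliding clamp Pcna 2001.7 and 1818.8 (-0.14).

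Many genes of mitosis carry a CCAAT box and a cell cycle genes homology region (CHR) close to their start, and cells switch them together. The promoters, taken from RefSeq on the GRCm38.p6 assembly as the 250 bases before and the 50 bases from the start, were searched on both strands for CCAAT (or ATTGG) and for the CHR as TTTGAA or TTCGAA (or TTCAAA). For 27 of the 32 genes of the list 29 promoters were in the table. Both motifs were found in 20 of them (69.0%), against 7.52% of all 32851 promoters. CCAAT alone was in 22 (75.9%, against 37.4%) and the CHR in 23 (79.3%, against 19.2%). The 3 list members with the largest decrease that hold both are shown because their promoters carry the motifs that the list shares. The sequences are those of Cenpf (chr1:189688037-189688336, minus strand), Kif11 (chr19:37376132-37376431, plus strand) and Ect2 (chr3:27153805-27154104, minus strand), a regulator of cytokinesis with 585.5 and 158.9 (-1.88). Each is written 5′ to 3′ on the strand of the gene, with CCAAT and CHR matches in capitals, and a match is a run of letters and not a measured site.
Cenpf: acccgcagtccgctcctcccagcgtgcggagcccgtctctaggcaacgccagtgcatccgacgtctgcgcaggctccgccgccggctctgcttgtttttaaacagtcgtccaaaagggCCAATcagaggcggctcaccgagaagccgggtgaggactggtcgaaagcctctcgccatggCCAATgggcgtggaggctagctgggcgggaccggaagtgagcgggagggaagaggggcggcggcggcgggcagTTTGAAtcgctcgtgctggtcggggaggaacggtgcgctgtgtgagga
Kif11: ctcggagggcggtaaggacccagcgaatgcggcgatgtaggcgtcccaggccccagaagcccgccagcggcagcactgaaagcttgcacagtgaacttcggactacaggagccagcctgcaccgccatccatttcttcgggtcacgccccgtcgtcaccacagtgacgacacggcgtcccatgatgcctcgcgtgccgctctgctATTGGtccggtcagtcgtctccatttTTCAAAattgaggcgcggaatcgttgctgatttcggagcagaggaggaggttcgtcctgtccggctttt
Ect2: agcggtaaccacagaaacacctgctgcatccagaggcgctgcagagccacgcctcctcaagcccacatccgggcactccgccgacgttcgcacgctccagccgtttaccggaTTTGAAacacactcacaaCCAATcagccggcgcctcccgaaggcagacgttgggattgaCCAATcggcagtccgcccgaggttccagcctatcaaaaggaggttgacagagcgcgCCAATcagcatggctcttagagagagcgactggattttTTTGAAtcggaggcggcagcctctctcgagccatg

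The inhibitors of the cell cycle did not move together. Of 19 kept CDK inhibitor and p53 target genes 6 (31.6%) were higher and 4 (21.1%) lower (median 0.16), beside 18.4% and 14.6% of all kept genes. Cdkn1c, the inhibitor p57, was far higher (98.5 at 6 h and 1133.3 at 48 h, 3.52), as was Cdkn2b (22.8 and 120.9, 2.41). Cdkn1b, the inhibitor p27 that granule cells use when they leave the cycle, had 546.7 and 152.2 (-1.84) at the brightest probe-set and 0.95 at the other. Cdkn1a, the p53 target p21, had 1634.9 and 2101.0 (0.36).

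The most uniform increase was that of the 28 meningeal fibroblast and interstitial matrix genes. All 28 were kept and all 28 were at least 2-fold higher, between 1.43 (Fmod) and 4.63 (Ogn), with a median of 2.89. The fibrillar collagen chains Col1a2 (249.4 and 2957.6, 3.57) and Col3a1 (486.2 and 3632.8, 2.90) and the proteoglycan Lum (78.4 and 1281.6, 4.03) reached high signals. Foxd1 (37.2 and 657.9, 4.14), Foxc1 (38.4 and 385.5, 3.33) and Twist1 (6.9 and 125.7, 2.65), transcription factors of meningeal and other mesenchymal cells, were higher together with the enzyme that cross-links collagen, Lox (104.1 and 1570.4, 3.92), and its partner Pcolce (73.0 and 1219.2, 4.06). Of 10 kept basement membrane genes 8 were higher (median 2.09), led by Nid2 (24.5 and 202.0, 3.04), while Col4a1 had 917.3 and 1799.0 (0.97). Of 14 kept proteases and inhibitors that remodel the matrix 13 were higher (median 2.43), among them the gelatinase Mmp2 (74.6 and 814.2, 3.45), the aggrecanase Adamts5 (24.0 and 323.3, 3.75) and the matricellular proteins Ccn1 (72.2 and 1133.0, 3.97) and Ccn2 (64.2 and 745.8, 3.54).

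Genes of vessel wall cells were higher or near even. Of 5 kept genes of pericytes and smooth muscle 4 were higher: Tagln (47.1 and 538.1, 3.51), Pdgfrb (80.4 and 555.8, 2.79), Acta2 (297.9 and 1207.7, 2.02) and Notch3 (26.4 and 84.4, 1.68). The pericyte gene Rgs5 had 127.3 and 123.3 (-0.05), and Myh11, the myosin of mature smooth muscle, had 0.9 and 0.6. Among 8 kept endothelial genes 3 (37.5%) were higher, beside 18.4% of all kept genes. They were the drug efflux pump Abcb1a (45.4 and 402.2, 3.15) and Cdh5 and Eng (1.74 each). Cldn5 of the tight junctions had 126.9 and 128.3 (0.02), and Pecam1 was not kept (2.3 and 8.9). No red blood cell gene was kept, and the 4 on the array had between 0.1 and 4.2 on the 2 arrays.

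Of 9 kept choroid plexus genes 7 were higher (median 2.77). The choroid plexus is the epithelium that secretes the cerebrospinal fluid. The water channel Aqp1 had 46.3 and 573.2 (3.63), the potassium channel subunit Kcne2 13.4 and 199.1 (3.32) and the bicarbonate transporter Slc4a5 13.2 and 187.6 (3.23). Ttr, the carrier of thyroid hormone that this epithelium makes in bulk, stood at 3880.6 and 4131.9 (0.09), and the factor Otx2 at 507.9 and 478.0 (-0.09). Ttr lay between 3415.2 and 4477.7 on all 8 arrays, and whether the array understates changes at such signals was not tested. Otx2 is also known from granule neurons, so it does not mark the choroid plexus alone.

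Most kept glial genes lay within 2-fold, and more of the others were higher than lower. Of 16 kept astrocyte and Bergmann glia genes 5 (31.25%) were higher and 1 (6.25%) lower (median 0.46), beside 18.4% and 14.6% of all kept genes. The glutamate transporter Slc1a3 had 166.5 at 6 h and 113.6 at 48 h (-0.55), the fatty acid binding protein Fabp7 1249.0 and 1221.4 (-0.03), and Slc1a2 68.4 and 20.1 (-1.77). Gja1, the gap junction protein connexin 43 (1170.5 and 3111.4, 1.41), and the intermediate filament Nes (30.3 and 121.2, 2.0), both of which other dividing cells make too, were higher. Also higher were Glul, which makes glutamine (672.8 and 1479.5, 1.14), Hopx (145.7 and 310.4, 1.09) and the Bergmann glia ligand Gdf10 (98.4 and 197.7, 1.01). Gfap, the standard astrocyte marker, had 21.6 and 19.5 and was not kept. Among oligodendrocyte precursor genes Pdgfra had 387.8 and 632.9 (0.71) at the brighter of its kept probe-sets and -1.06 at the other, so its direction is unsettled. Cspg4 was higher (38.3 and 82.9, 1.11), Olig1 had 82.1 and 102.6 (0.32) and Ptprz1 95.3 and 65.5 (-0.54). Sox10 (3.2 and 6.0) was not kept. Olig2 (31.0 and 9.3), Lhfpl3 (43.9 and 10.2), Nkx2-2 (15.8 and 5.0) and Gpr17 (9.6 and 3.7), also not kept, had the lower signal at 48 h. The myelin list had 4 kept members, 2 of them higher (median 1.15). Mbp had 329.3 and 182.1 (-0.85), Cnp 190.0 and 264.0 (0.47), Mal 3.1 and 71.0 (1.83) and Cldn11, a tight junction protein that the meninges also make, 42.9 and 671.3 (3.97).

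All 16 kept microglia genes had a log2 fold change above 0, between 0.36 and 3.62, and 6 of them passed 2-fold (median 0.86). The complement gene C1qc had 65.1 and 134.8 (1.05), the adaptor Tyrobp 112.9 and 264.9 (1.23), and the receptor Csf1r 295.5 and 378.5 (0.36). The 2 with the largest increase were Tmem119 (15.4 and 245.1, 3.62) and Olfml3 (30.9 and 180.9, 2.55), which mesenchymal cells are known to express as well. P2ry12, a marker of resting microglia, had 3.9 and 1.9 and was not kept. Of 17 lysosome genes, all kept, 7 were higher and 0 lower (median 0.66), for example the protease Ctsd (949.7 and 2664.3, 1.49). Among 12 kept genes of activated phagocytes 5 (41.7%) were higher, beside 18.4% of all kept genes, and 0 lower (median 0.41), led by Gpnmb (106.1 and 565.4, 2.41).

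The interferon response genes were higher as a group. Interferons induce them through a factor that binds the interferon-stimulated response element (ISRE), and their products block viral growth and present antigen. Of 22 kept members 16 were higher and 0 lower (median 1.69). The chemokine Cxcl10 had 81.3 and 585.2 (2.85), the antiviral proteins Ifit1 255.0 and 1416.3 (2.47), Bst2 186.7 and 1004.4 (2.43) and Ifit3 244.1 and 1148.4 (2.23), and the peptide transporter Tap1 41.4 and 209.2 (2.34). Irf9, a subunit of the inducing factor, had 158.4 and 204.8 (0.37). The NF-kB and cytokine genes had 9 of 15 higher and 1 lower (median 1.44). Among them were the cyclooxygenase Ptgs2 (29.1 and 208.0, 2.84), the adhesion molecules Icam1 (118.9 and 833.3, 2.81) and Vcam1 (276.8 and 1235.6, 2.16) and the chemokine Cxcl1 (272.1 and 1495.7, 2.46), while the cytokine Il1b was the one that was lower (51.5 and 25.7, -1.0).

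The promoters of the interferon list were searched for the ISRE as GAAANNGAAA (or TTTCNNTTTC), a search that was added after the values had been seen. It was found in 11 of the 27 promoters in the table (40.7%), which belong to 11 of 22 genes, against 3.44% of all promoters. Cxcl10 (chr5:92348840-92349139, minus strand) and Ifit1 (chr19:34640639-34640938, plus strand) are shown because they are the 2 members with the largest increase that hold it, with the matches in capitals.
Cxcl10: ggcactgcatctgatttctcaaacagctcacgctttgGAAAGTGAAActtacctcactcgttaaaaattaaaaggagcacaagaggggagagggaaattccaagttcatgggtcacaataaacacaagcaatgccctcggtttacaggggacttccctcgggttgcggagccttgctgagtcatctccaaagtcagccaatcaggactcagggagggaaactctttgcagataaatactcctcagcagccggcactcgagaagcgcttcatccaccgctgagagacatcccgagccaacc
Ifit1: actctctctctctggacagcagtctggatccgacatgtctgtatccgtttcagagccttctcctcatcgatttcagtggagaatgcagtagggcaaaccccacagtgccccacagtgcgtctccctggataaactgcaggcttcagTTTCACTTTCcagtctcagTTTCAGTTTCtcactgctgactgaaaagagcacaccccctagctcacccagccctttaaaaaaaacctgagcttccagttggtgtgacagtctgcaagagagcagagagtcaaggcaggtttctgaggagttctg

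Stress and metabolic genes moved in parts. Among 11 kept heat shock genes 5 were higher and 0 lower. The small heat shock proteins Cryab (339.1 and 3943.9, 3.54) and Hspb1 (152.3 and 922.3, 2.60) and the inducible chaperone Hspa1a (201.9 and 972.7, 2.27) were higher, whereas the constitutive Hspa8 had 4297.8 and 4115.2 (-0.06). Of 22 kept genes of amino acid and unfolded protein stress 7 (31.8%) were higher and 2 (9.09%) lower (median 0.06), beside 18.4% and 14.6% of all kept genes. Atf3 (332.3 and 1334.2, 2.01) and Ppp1r15a (338.6 and 1208.5, 1.84) were higher, and the mTOR inhibitor Ddit4 (673.1 and 114.1, -2.56) and the amino acid transporter Slc7a5 (1833.5 and 738.3, -1.31) were lower. Of 14 antioxidant and metallothionein genes 7 were higher and 0 lower (median 0.96), led by Gstm1 (194.1 and 671.2, 1.79).

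Glycolysis and hypoxia genes had 9 of 19 higher and 1 lower (median 0.87). Adm, the peptide adrenomedullin, had 93.4 and 661.7 (2.82), and Pfkl, a phosphofructokinase, 169.1 and 738.9 (2.13). The one that was lower was the neuronal glucose transporter Slc2a3 (399.3 and 76.9, -2.38), while the transporter of glia and endothelium, Slc2a1, was higher (363.9 and 1111.4, 1.61). None of the 17 oxidative phosphorylation genes passed 2-fold (median 0.22). Cholesterol and fatty acid synthesis genes had 1 of 21 higher, the desaturase Scd1 (43.8 and 218.0, 2.32), and 3 lower, Dhcr7 (118.0 and 38.3, -1.62), Mvd (153.0 and 53.6, -1.51) and Stard4 (312.0 and 123.5, -1.34). The lower share, 14.3%, was near the 14.6% of all kept genes, and the higher share, 4.76%, was under their 18.4%.

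Many genes of IGF, BMP and TGF-beta signalling were higher. Of 20 kept genes of these pathways 13 were higher and 1 lower (median 1.44), the 13 being binding proteins of IGF, ligands of the BMP and TGF-beta families and Id3. The ligand Igf1 had 116.4 and 204.5 (0.81). Bmp4 (20.1 and 249.1, 3.63), Tgfb3 (22.4 and 269.3, 3.59), Bmp6 (32.1 and 376.5, 3.55) and the IGF-binding protein Igfbp6 (95.3 and 1282.3, 3.75) stood out, as did the BMP target Id3 (73.5 and 481.3, 2.71), but Id2 was lower (914.3 and 431.0, -1.08). Of 14 kept circadian clock genes 4 (28.6%) were higher and 2 (14.3%) lower, beside 18.4% and 14.6% of all kept genes. The higher were Bhlhe40 (56.0 and 294.1, 2.39), Dbp (92.7 and 441.5, 2.25), Hlf (26.5 and 116.9, 2.14) and Per3 (11.7 and 60.7, 1.60). The lower were Cry2 (153.0 and 40.8, -1.91) and Per2 (81.6 and 28.9, -1.50). Among 13 kept immediate early genes 3 were higher, with Fosl2 in the lead (99.5 and 448.0, 2.17), and 2 lower, Fos (1139.8 and 267.3, -2.09) and Nr4a3 (63.2 and 20.8, -1.60), shares near those of all kept genes (18.4% and 14.6%).

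The machinery of thyroid hormone itself was measured in cultures without the T3 treatment. Their medium was Neurobasal with B27 supplement, and the methods do not give its hormone content. The untreated cultures are therefore not known to have been free of T3. Dio2, the enzyme that makes T3 from its precursor, had 16.7 at 6 h and 298.9 at 48 h (3.90). The transporter Slco1c1 (13.2 and 69.0, 1.79) and the receptor partner Rxra (43.6 and 99.8, 1.19) were higher as well, the 3 of 7 kept members of the list that passed 2-fold. Thra, the main receptor of the brain, had 965.7 and 574.3 (-0.75), while Thrb (3.5 and 12) and the T3 target Hr (8.6 and 2.1) were not kept. Klf9, another target, had 1220.0 and 1497.6 (0.30). Of the 13 kept genes that the study followed for their response to T3, a list chosen on these same arrays, 4 were higher (Cdh1, Vnn1, Tgm2 and Dbp) and 3 lower (Snap25, Spata13 and Zbtb20) between the untreated cultures. These shares, 30.8% and 23.1%, stand beside 18.4% and 14.6% of all kept genes.

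Ribosomal protein genes were close to even, and genes often taken as references less so. All 14 ribosomal protein genes with a probe-set lay between -0.24 and 0.09 (median -0.06). Of 9 reference genes only the lysosomal enzyme Gusb passed 2-fold (75.8 and 239.6, 1.66). Actb had 3382.3 and 3401.7 (0.01) and Rpl13a 5135.1 and 4918.2 (-0.06). The others differed by more, with Hprt at 806.3 and 1314.2 (0.70), Pgk1 at 0.51 and Sdha at 0.48 on the higher side and Tfrc at -0.59, Tbp at -0.55 and Ywhaz at -0.50 on the lower.

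The T3-treated cultures gave another pair of arrays at the same hours, which shares no array with the untreated pair but shares its cell batches. Of the 1813 genes higher without T3, 1460 (80.5%) were at least 2-fold higher with T3 too, beside 16.4% of all kept genes, and 1810 (99.8%) had the same direction. Of the 1443 lower genes 1083 (75.1%) were at least 2-fold lower with T3, beside 12.9% of all kept genes, and 1434 (99.4%) had the same direction. None passed 2-fold the other way. Across genes the log2 fold changes of both pairs correlated with r = 0.95, where genes are not independent replicates. Between the treated and the untreated culture of the same hours, 0.436% of the kept genes differed 2-fold at 6 h and 0.74% at 48 h.

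The lower genes had a median of -1.54 without and -1.35 with T3, and the higher genes one of 1.68 and 1.51. Since these genes were chosen by their values without T3, smaller values in the other pair follow in part from the choice, and nothing is read from them. Single genes with a large gap between the pairs are given as values. Scg2 had -3.49 without T3, against -1.14 with it (337.1 and 153.1), Chgb -4.86 against -2.73 (664.3 and 100.1) and Snap25 -4.11 against -2.83 (725.8 and 102.3). Cxcl10 had 2.85 without T3 and 0.46 with it (117.6 and 162.2). In the opposite way, the matrix protein Mgp had 2.94 without and 4.42 with T3 (111.7 and 2389.2), and Aldh1a2 4.37 and 5.33 (16.4 and 803.1). The difference between the pairs was not tested.

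**Figure D3:**
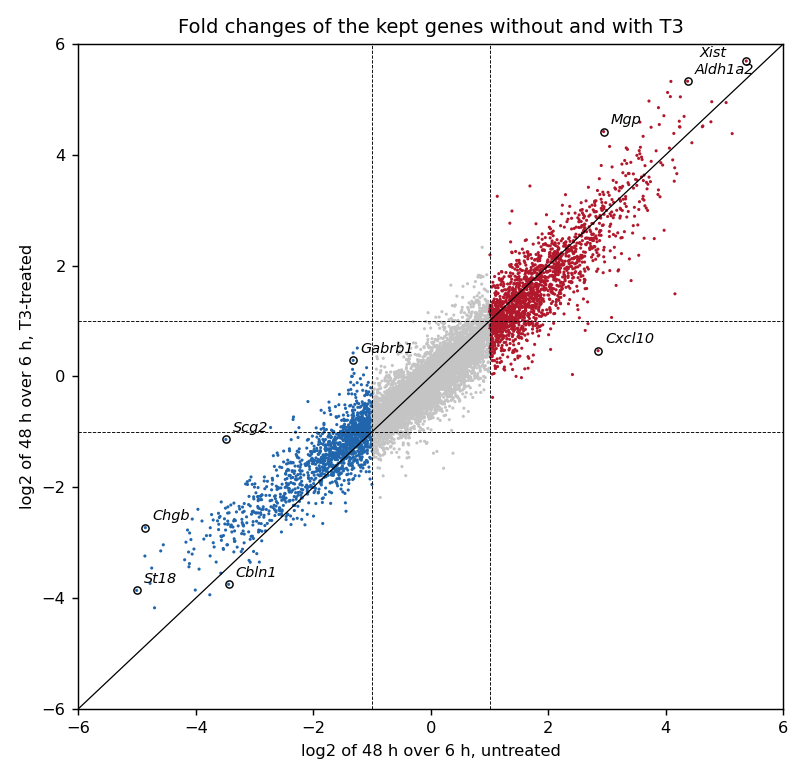
Log2 of the 48 h signal over the 6 h signal for the 9859 kept genes, without T3 (x axis) and with T3 (y axis). Red and blue points are genes at least 2-fold higher and lower without T3, dashed lines mark 2-fold and the solid line equal values; points of both colours follow the line, and 9 genes named in the text are circled.

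The other untreated arrays did not fall between those at 6 and 48 h in the order of their hours. On a scale where 0 is the 6 h and 1 the 48 h log2 signal, the genes that were higher at 48 h had a median position of 0.763 on the 16 h array and of 0.393 on the 24 h array. For the lower genes the medians were 0.640 and 0.126. The 16 h array stood further along this scale than the 24 h array in 1553 (85.7%) of the higher and 1187 (82.3%) of the lower genes. An order that follows the hours, from 6 through 16 and 24 to 48 h, was kept by 168 (9.27%) and 190 (13.2%). Thus Snap25 had 631.9, 145.8, 436.9 and 36.7 at 6, 16, 24 and 48 h, and Ogn had 39.8, 775.1, 276.5 and 986.4.

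**Figure D4:**
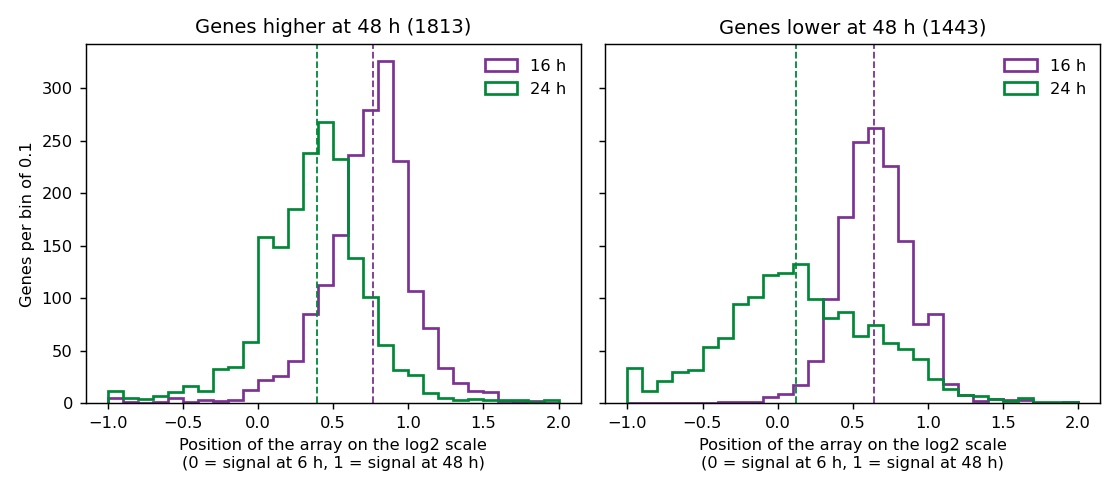
Number of genes (y axis) by the position of the untreated 16 h and 24 h arrays (x axis, 0 for the 6 h and 1 for the 48 h log2 signal), for the 1813 higher and the 1443 lower genes. Values beyond the axis are drawn in the outermost bins, dashed lines mark medians, and in both panels the 16 h median lies above the 24 h median.

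Positions of single groups were taken only over their genes past 2-fold. Neuronal cytoskeleton genes kept the order of the medians above, with 0.51 at 16 h and -0.22 at 24 h. The latter is beyond the 6 h signal, as for Tubb3 with 415.3 at 6 h and 1019.9 at 24 h. Synaptic vesicle (-0.19) and receptor genes (-0.24) were alike at 24 h. Choroid plexus genes had 1.16 at 16 h, past the 48 h signal, and 0.36 at 24 h. The mitosis genes had the opposite order, with 0.62 at 16 h and 0.77 at 24 h. The 6 microglia genes past 2-fold had median positions of -0.25 at 16 h and -0.91 at 24 h, but they did not move together. At 16 h C1qc, Tyrobp and Fcer1g were below their 6 h signals, and Cd68, Tmem119 and Olfml3 above. At 24 h only Tmem119 and Olfml3 were above. Cx3cr1, a receptor of microglia that did not pass 2-fold, had 57.7, 17.6, 10.5 and 111.0. The untreated 24 h array also held far more of some astrocyte genes than the other untreated arrays, as the water channel Aqp4 with 63.6, 21.4, 1053.9 and 39.1.

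**Figure D5:**
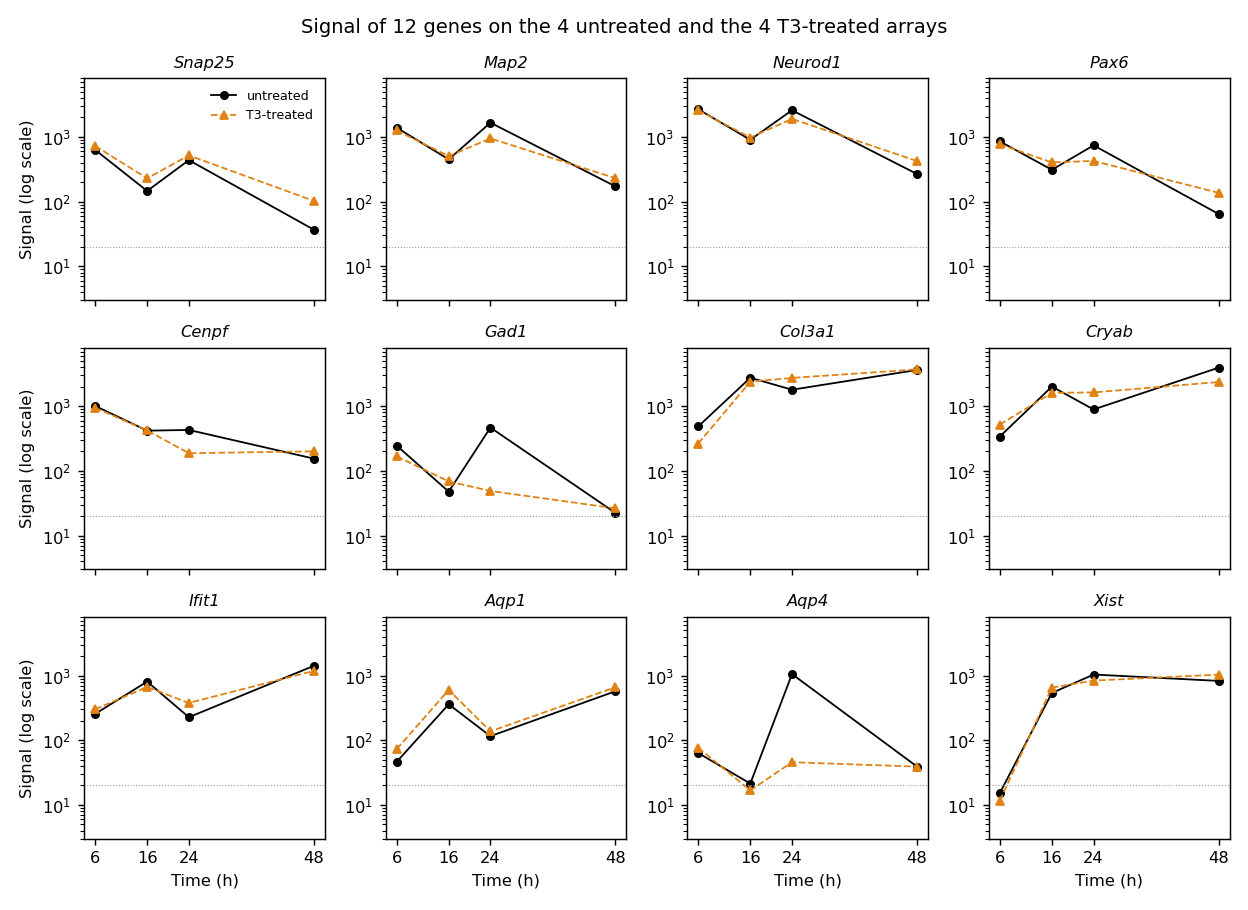
Signal on a log scale (y axis) against hours (x axis) for 12 genes on the 4 untreated (black circles, solid lines) and the 4 T3-treated arrays (orange triangles, dashed lines), 1 array per point. The dotted line marks the floor of 20, and the lines join cultures and not 1 culture followed over time. Untreated signals of Snap25, Map2, Neurod1, Pax6 and Gad1 are lower at 16 and 48 h than at 6 and 24 h. Col3a1 and Cryab are higher at 48 h than at 6 h, and Xist is below the floor at 6 h only.

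The sex-linked genes give a measure of the pups that went into each culture. Xist had 15.2 at 6 h without T3 and 11.6 with it, and between 538.5 and 1037.2 on the other untreated arrays. The Y-linked genes Eif2s3y (418.3 at 6 h and 181.3 at 48 h, -1.21) and Kdm5d (174.2 and 53.5, -1.70) were lower at 48 h, and Uty had 53.4 and 55.0 (0.04). Thus Y-linked genes were measured on both arrays and Xist above the floor at 48 h only, and the pools of pups behind the 2 arrays differed in this respect. The part of the pool in the fold changes of other genes was not tested.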

How the data were processed

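The array of 1 untreated culture at 48 h was set against that of 1 untreated culture at 6 h, among 8 arrays of the series, with groups taken from the sample labels. Each value of the authors' deposited table is a linear signal intensity, which they computed with GCOS and MAS5 (tools named in the submitters' processing notes) and scaled. Trimming 2% of the values at each end left a mean of 100 for all arrays. The number of arrays, 1 a side, limits the precision. MAS5 also gives calls of presence and p-values of change, which were not used here.

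Of 45101 probe-sets 64 control probe-sets were dropped. Of the other 45037, 34945 carry 1 symbol, 932 several and 9160 none, and only the first kind was named. Probe-sets with a signal of 50 or more on 1 of the 2 arrays were kept, signals below 20 were raised to 20, log2 ratios were taken, and the kept probe-set with the highest mean log2 signal over the 8 arrays stood for its gene. No test was run. The members and the 43 gene lists (732 genes, 62 without a probe-set of their own) were chosen with earlier results of these data known. The rule for names covers the 12 genes with the largest difference each way, the up to 6 kept members of each list with the largest difference, and markers of the study, not all of which are printed. Further list members were named after their values were seen. Promoters are those of RefSeq. The 12 alternatives changed the floor, the offset, the normalization, the filter, the fold or the probe-set rule, or took the T3-treated arrays or the mean of both pairs in place of the untreated arrays. The scripts were tested on simulated data and used pandas 2.3.3, matplotlib 3.10.9 and numpy 2.4.6 under Python 3.11.15.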

Additional observations from a re-analysis of the deposited data

Results flagged for a closer look

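Gabrb1, a GABA-A receptor subunit, was the one named gene past 2-fold that went the opposite way with T3. Its signal was 50 at 6 h and 17.4 at 48 h without T3, a log2 fold change of -1.32, and 36.1 and 44.1 with T3, a log2 fold change of 0.29. All 4 signals were low, each condition had 1 array, and the difference was not tested.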

How the results depend on the processing

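Leaving out a replicate was not possible with 1 array a side. No paired analysis was possible because each group holds 1 sample. Without the floor the counts of genes are the same by construction, since a signal of 50 is over 2-fold above 20. Among list medians 393 values over the alternatives moved by less than 1.5-fold and 24 by more. A change of sign was counted only for medians of 2-fold or more, and not for smaller ones. There was 1: the median of the myelin genes was 1.15 and became -0.19 when a signal of 50 was required on both arrays. That filter, which drops genes measured on 1 array only, left 983 genes higher and 832 lower, and 1456 and 1378 probe-sets. With 32 added to every signal 1723 probe-sets were lower, in place of 2717. At 3-fold 1018 genes were higher and 685 lower, and 1567 and 1173 probe-sets. At 1.5-fold 2550 genes and 4742 probe-sets were lower. The other 35 counts stayed within 1.5 times. Of the calls by gene, between 51.4% and 59.8% were higher over the settings (55.7% as reported). For the 24 genes with the largest differences 155 values moved by less than 1.5-fold and 65 by more.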
